A study of Rattus norvegicus with 17 samples.

Results

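The flavin monooxygenases and the enzymes that conjugate foreign compounds, hormones and bile acids with glucuronate, sulfate or glutathione were followed in the livers of young rats. Members were the genes with a probe set of 1 symbol that begins with Fmo, Ugt1, Ugt2, Ugt3, Sult, Gsta, Gstm, Gstp, Gstt, Gstk, Gsto or Gstz followed by a letter or digit, or that is Mgst1, Mgst2 or Mgst3, with the probe set of highest mean kept for each gene. This gave 42 of the 14557 genes with 1 symbol, each through 1 probe set. They were 8 Fmo genes, 6 Ugt genes of the Ugt2 and Ugt3 families, 6 Sult genes, 5 Gsta genes, 6 Gstm genes, 8 other cytosolic or mitochondrial Gst genes, 2 Mgst genes and Fmod. Fmod encodes fibromodulin, a matrix proteoglycan that matches the letters of the rule and is not a flavin monooxygenase; it was kept and counted. No Ugt1, Gstz or Mgst2 gene was analysed here. A further 3 probe sets of these families carried several symbols and were left out.

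Liver RNA was measured on 17 Affymetrix arrays, 1 per animal, from male Wistar rats killed at 24 days of age. Every mother had been fed a choline-deficient AIN-93 M diet for 16 weeks before mating, which established fatty liver, and had been mated with a healthy Wistar male, so all 4 groups share that treatment and no group came from mothers without it. In the names, the letter for pregnancy comes before the letter for lactation, with D for a diet deficient in choline and N for the choline-adequate AIN-93 G diet. DD (deficient in both periods) held 4 livers, DN (deficient in pregnancy, adequate in lactation) held 5, ND (adequate in pregnancy, deficient in lactation) held 4 and NN (adequate in both) held 4, with 1 pup from each litter. Values are log2 probe set signals from RMA, a method that normalises the arrays against each other, so a difference of 1 is a doubling. Whole liver was used, in which fewer cells of a type and less RNA per cell cannot be told apart.

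A free-text field names the prostate line LnCap, whereas the tissue field names liver. All 4 hepatocyte markers measured were bright, with mean signals of 11.69 for Alb, 11.46 for Tf, 11.16 for Ttr and 9.85 for Serpina1. The 3 prostate markers measured had mean signals of 2.07 for Hoxb13, 1.58 for Pbsn and 2.19 for Tgm4. These 3 means were under 2.58, the median of all values, called the dim limit here. The highest Tgm4 value in a single liver was 2.69. The mean of the hepatocyte markers lay at 10.94 to 11.10 in DD, 10.97 to 11.05 in DN, 10.98 to 11.11 in ND and 11.00 to 11.09 in NN livers. Array medians lay between 2.5 and 2.71. Array spread, taken as the SD of all values on an array, ran at 1.616 to 1.742 in DD, 1.718 to 1.788 in DN, 1.694 to 1.793 in ND and 1.656 to 1.785 in NN livers, and the array NN 2 had the highest spread of its group. How precise any comparison can be is limited by this small number of arrays.

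Drug and toxin metabolism in the liver runs in steps. Flavin monooxygenases, which carry FAD and use NADPH, add oxygen to nitrogen and sulfur atoms of amines and sulfides. UDP-glucuronosyltransferases (Ugt) and sulfotransferases (Sult) then attach glucuronate or sulfate to hydroxyl groups of drugs, steroids, thyroid hormones and bile acids, and glutathione transferases (Gst, and Mgst in membranes) attach glutathione to electrophiles or reduce lipid peroxides with it. In rat liver many of these genes increase between birth and adulthood, and several are induced through the receptors AHR, CAR and PXR or through NRF2.

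The promoters of 4 members with the smallest p in the interaction of the diet periods, given further on, are printed from 250 bases before to 50 bases after the gene start, from the RefSeq table of build GRCr8, 5′ to 3′ on the gene's own strand. Capitals mark matches to any of 5 motifs: the antioxidant response element TGACNNNGC, the xenobiotic response core GCGTG, the STAT palindrome TTCNNNGAA, the HNF1 sequence GTTAAT and the nuclear receptor sequence AGGTCA, each searched on both strands. Fmo1 lies at chr13:77747617-77747916 on the minus strand, Ugt2a3 at chr14:20851720-20852019 on the plus strand, Sult1a1 at chr1:190706063-190706362 on the minus strand and Gsta1 at chr9:31216483-31216782 on the minus strand.
Fmo1: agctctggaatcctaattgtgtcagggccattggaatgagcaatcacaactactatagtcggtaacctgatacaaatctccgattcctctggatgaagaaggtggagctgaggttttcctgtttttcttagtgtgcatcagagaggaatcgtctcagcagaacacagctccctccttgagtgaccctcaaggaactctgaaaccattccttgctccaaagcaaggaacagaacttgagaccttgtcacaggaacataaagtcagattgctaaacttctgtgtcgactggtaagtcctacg
Ugt2a3: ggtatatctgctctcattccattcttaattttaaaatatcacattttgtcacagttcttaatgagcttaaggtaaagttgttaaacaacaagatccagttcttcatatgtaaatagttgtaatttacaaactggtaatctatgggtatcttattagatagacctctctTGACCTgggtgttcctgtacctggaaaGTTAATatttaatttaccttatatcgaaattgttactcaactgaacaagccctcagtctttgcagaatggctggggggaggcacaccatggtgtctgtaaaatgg
Sult1a1: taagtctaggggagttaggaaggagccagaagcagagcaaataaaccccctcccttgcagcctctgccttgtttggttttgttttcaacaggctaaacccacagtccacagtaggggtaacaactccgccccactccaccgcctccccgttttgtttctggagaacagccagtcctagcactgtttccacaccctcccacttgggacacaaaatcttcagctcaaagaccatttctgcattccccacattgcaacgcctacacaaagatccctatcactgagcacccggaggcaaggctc
Gsta1: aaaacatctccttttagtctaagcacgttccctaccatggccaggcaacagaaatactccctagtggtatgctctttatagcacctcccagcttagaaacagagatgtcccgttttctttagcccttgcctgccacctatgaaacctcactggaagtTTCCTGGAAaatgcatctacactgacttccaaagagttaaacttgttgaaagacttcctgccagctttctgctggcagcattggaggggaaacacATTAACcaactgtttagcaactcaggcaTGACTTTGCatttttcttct
The Ugt2a3 promoter holds GTTAAT and, on the other strand, the nuclear receptor sequence (TGACCT as printed). The Gsta1 promoter holds the antioxidant response element as TGACTTTGC, the STAT palindrome as TTCCTGGAA and, on the other strand, the HNF1 sequence (ATTAAC as printed). None of the 5 motifs is in the printed windows of Fmo1 and Sult1a1, which says only that these letters are not in these 300 bases. A promoter was listed for 39 members. The antioxidant response element was in 5 of them (12.8%) and in 12.1% of all 33469 rat promoters of this length, and the xenobiotic response core was in 9 (23.1%) against 29.7% of all promoters. The STAT palindrome was in 4 (10.3%) against 8.87%, the HNF1 sequence in 4 (10.3%) against 7.45% and the nuclear receptor sequence in 6 (15.4%) against 16.2%. A match is a match of letters and no evidence of binding.

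Of the 42 members, 36 passed the filter on dim genes, which asked for a signal above 1.73 in at least 4 arrays, and were tested in limma. Fmo9, Fmol, Gsta4l1, Sult1c2al1, Sult1d1 and Sult6b1 did not pass and had mean signals of 1.58, 1.55, 1.57, 1.25, 1.60 and 1.36. Of the 36 tested, 11 had a mean under the dim limit and 25 were above it. The SD within groups ran from 0.09 for Mgst1 to 0.817 for Sult1b1, with a median of 0.334, so members differ widely in how small a difference could be seen. Adjusted p-values are from limma with Benjamini-Hochberg adjustment over all 12912 genes tested, a difference is followed by its SE and a group mean by its SD after ±, and a call needs an adjusted p under 0.05.

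No member passed this test in any of the 6 comparisons. In DD against DN livers 0 of 36 members were called, beside 0.00774% of all genes, and the smallest adjusted p of a member was 0.131. The counts of members called were also 0, beside 0% of all genes, in DN against NN (smallest adjusted p of a member 0.315), ND against NN (0.889), DD against ND (0.55), DD against NN (0.999) and the interaction (0.114). The values that follow are therefore a description, and unadjusted p-values under 0.05 are counted only beside the same count over all genes.

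In DD against DN livers 7 of 36 members (19.4%) were lower at an unadjusted p under 0.05, beside 10.6% of all genes, and 1 (Gstm6) was higher, beside 7.84%. In DN against NN livers 6 members (16.7%) were higher, beside 6.78% of all genes, and 1 (Fmo2) was lower, beside 6.63%. In ND against NN livers 2 members were higher, beside 2.75% of all genes, and 0 were lower, beside 1.88%. In DD against ND livers 3 members (8.33%) were lower, beside 5.84% of all genes, and 0 were higher, beside 2.93%. In DD against NN livers 0 members were past this mark in either direction, beside 1.33% of all genes higher and 2.25% lower. A share near that of all genes is no result about the members, the other shares rest on few genes, and none of these differences passed after adjustment.

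Single arrays moved several of these counts. In DN against NN livers the 6 higher members became 1 without NN 4, 2 without NN 1 and 12 without NN 2, where the share of all genes past the mark in either direction was 7.01%, 9.73% and 20.8%. In ND against NN livers the 2 higher members became 0 without ND 4 or NN 4, 1 without ND 1 or NN 3, 4 without DN 3 and 6 without ND 2 or NN 2. The share of all genes past the mark in either direction was then 2.39%, 2.76%, 3.07%, 3.28%, 4.85%, 7.82% and 10.9%, in the same order. With arrays weighted by their quality 9 members were higher and 2 lower in ND against NN, beside 9.73% of all genes in either direction. In DN against NN 10 were then higher and 1 lower, beside 17.8% of all genes in either direction. In DD against ND livers the 3 lower members became 1 without ND 1 or ND 4 and 5 without DD 3, beside 5.58%, 4.25% and 6.2% of all genes in either direction. The 7 lower members of DD against DN stayed between 5 and 7 when any 1 array was left out, beside 13.3% to 21.9% of all genes in either direction. With array spread as a covariate 1 member was lower and 2 were higher in DD against DN, beside 5.61% of all genes in either direction. In DN against NN 0 were then past the mark, beside 7.22%.

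The median difference over the 36 members was -0.07 in DD against DN, with 12 members above 0 (51.6% of all genes were above 0), and 0.20 in DN against NN, with 26 above 0 (44.5% of all genes). It was 0.13 in ND against NN, with 28 above 0 (48.4% of all genes), -0.07 in DD against ND, with 14 above 0 (47.1%), and 0.03 in DD against NN, with 24 above 0 (43.8%). The medians over all genes were 0.01, -0.03, -0.01, -0.02 and -0.03 in the same 5 comparisons. DD against DN and DN against NN share the DN arrays, DN against NN and ND against NN share the NN arrays, and so on, so their values are not independent of each other. Among the 25 members above the dim limit the medians were -0.18, 0.33, 0.23, -0.14 and 0.07. Over all genes with at least 4 arrays above the dim limit they were -0.04, 0.00, 0.03, -0.07 and -0.04.

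**Figure D1:**
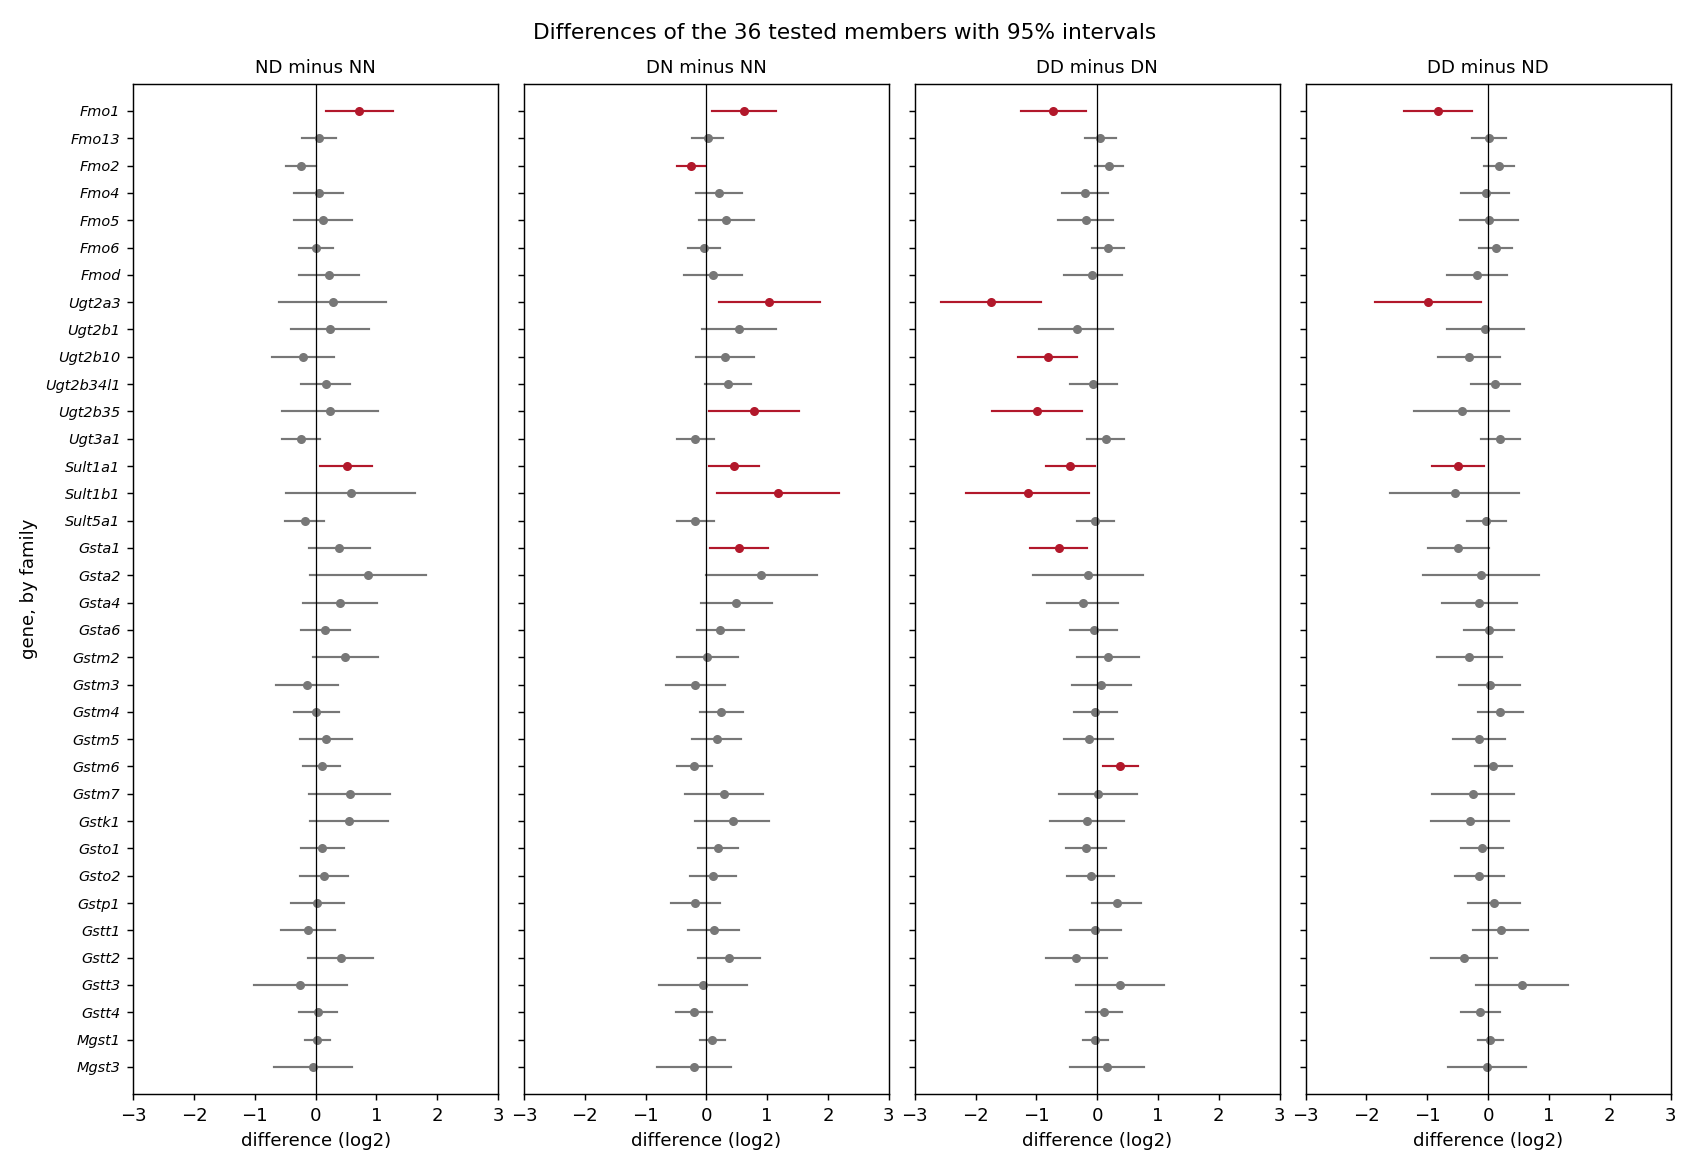
Difference in log2 signal (x axis) of each of the 36 tested members (y axis, by family), with 95% intervals from limma, in ND minus NN, DN minus NN, DD minus DN and DD minus ND livers; red marks an unadjusted p under 0.05 and no member passed after adjustment. Ugt2a3 has the lowest value of DD minus DN at -1.75, and Sult1b1 the highest of DN minus NN at 1.17.

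Fmo1, a main flavin monooxygenase of rat liver, had signals of 7.10, 7.67, 6.81 and 7.06 in DD livers, 7.70, 8.10, 7.77, 8.04 and 7.79 in DN livers, 8.00, 7.41, 7.75 and 8.77 in ND livers and 6.99, 7.96, 7.21 and 6.87 in NN livers. All 4 DD livers lay under all 5 DN livers, and NN 2 alone reached the DN range among the NN livers. Group means were 7.16 ± 0.36 in DD, 7.88 ± 0.18 in DN, 7.98 ± 0.58 in ND and 7.26 ± 0.49 in NN (SD, n = 4, 5, 4 and 4). The difference was -0.72 ± 0.252 in DD against DN (adjusted p = 0.164), -0.82 ± 0.265 in DD against ND (adjusted p = 0.55), 0.62 ± 0.252 in DN against NN (adjusted p = 0.331) and 0.72 ± 0.265 in ND against NN (adjusted p = 0.889). The last of these was 0.46 without ND 4. DD minus NN, between the groups whose diet did not switch between the periods, was -0.10 with a 95% interval of -0.66 to 0.46. Groups that do not overlap in DD against DN, with every DD liver lower, were found for 4 members (Fmo1, Sult1a1, Ugt2a3 and Ugt2b10), beside 3.2% of all genes.

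The other 5 tested Fmo genes had differences between -0.20 and 0.20 in DD against DN. Fmo5, which inserts oxygen next to carbonyl groups in work on the human enzyme, had 5.90, 6.03, 6.26 and 5.83 in DD livers, 6.23, 6.20, 5.91, 6.24 and 6.41 in DN livers, 6.59, 5.99, 5.81 and 5.57 in ND livers and 5.76, 6.11, 6.38 and 5.22 in NN livers, and the groups overlapped in all comparisons. Its difference was -0.19 in DD against DN, with a 95% interval of -0.65 to 0.26. Fmo4 had 3.05, 3.61, 3.48 and 3.41 in DD livers, 3.47, 3.67, 3.49, 3.79 and 3.53 in DN livers, 3.15, 3.48, 3.67 and 3.43 in ND livers and 3.27, 4.05, 3.09 and 3.12 in NN livers. NN 2 was again the highest NN liver for Fmo4.

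Fmo2, known as the lung form, was dim. Its signals were 2.95, 2.43, 2.72 and 2.53 in DD livers, 2.40, 2.46, 2.53, 2.36 and 2.53 in DN livers, 2.53, 2.5, 2.51 and 2.38 in ND livers and 2.74, 2.63, 2.77 and 2.72 in NN livers. All DN and all ND livers lay under all NN livers, at -0.26 ± 0.108 in DN against NN (adjusted p = 0.339) and -0.24 ± 0.114 in ND against NN (adjusted p = 0.889), beside 1.92% and 1.21% of all genes that were lower without overlap. No member was higher without overlap in DN against NN, DD against ND or DD against NN, beside 1.12%, 1.46% and 0.782% of all genes. Both differences are small, on signals near the dim limit. Fmo6 had 2.57, 2.38, 2.80 and 2.72 in DD livers, 2.36, 2.32, 2.5, 2.46 and 2.57 in DN livers, 2.35, 2.72, 2.62 and 2.27 in ND livers and 2.28, 2.61, 2.5 and 2.55 in NN livers. Fmo13 had 1.87, 1.90, 1.87 and 2.02 in DD livers, 1.95, 1.74, 1.87, 1.89 and 1.87 in DN livers, 1.80, 1.89, 2.04 and 1.87 in ND livers and 2.20, 1.73, 1.5 and 1.95 in NN livers, with overlap throughout. Over the 6 tested Fmo genes the median difference was -0.07 in DD against DN and 0.05 in ND against NN, and the name-matched Fmod, with a mean of 2.22, was at -0.08 and 0.22.

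**Figure D2:**
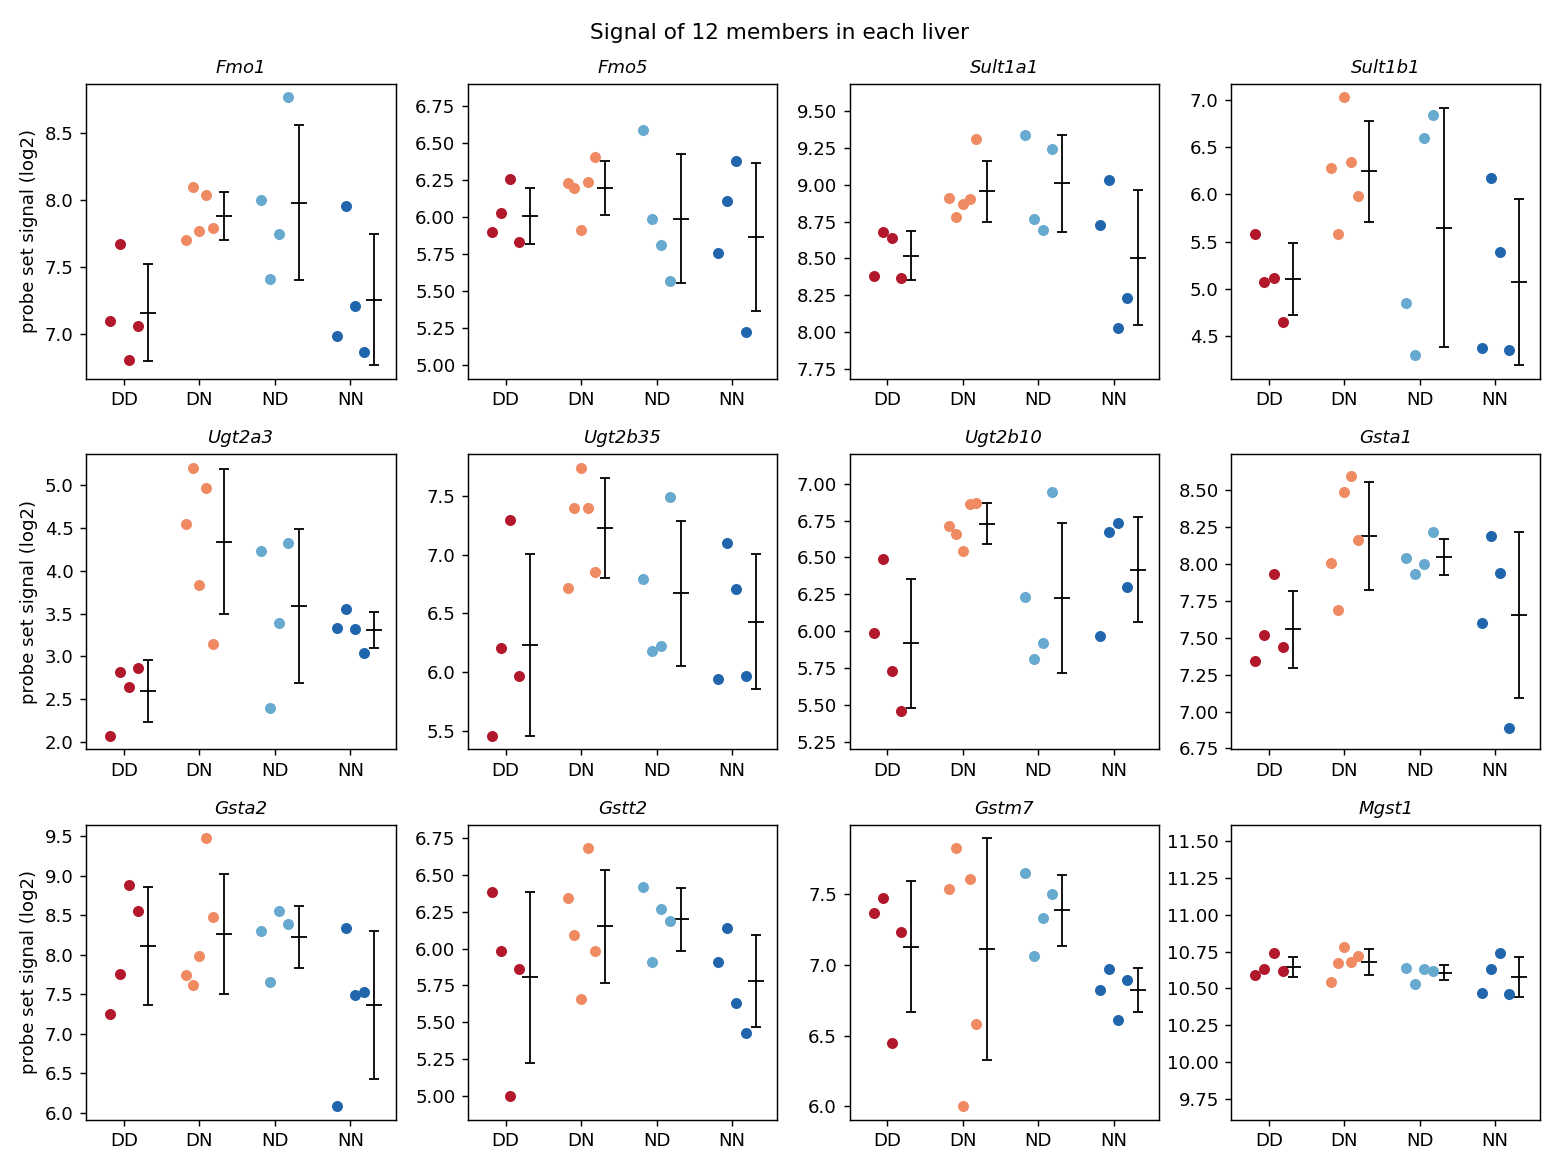
Log2 probe set signal (y axis) of 12 members in each liver (points) of DD, DN, ND and NN, with the group mean and SD (bars). Fmo1, Sult1a1, Ugt2a3 and Ugt2b10 separate DD from DN livers, whereas Mgst1 lies between 10.46 and 10.78 in all 17 livers.

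Among the Ugt genes, Ugt2a3 had the lowest difference of DD against DN of all members. UGT2A3 conjugates bile acids in work on the human enzyme. Its signals were 2.07, 2.82, 2.64 and 2.86 in DD livers, 4.55, 5.21, 3.84, 4.97 and 3.14 in DN livers, 4.23, 2.39, 3.39 and 4.33 in ND livers and 3.33, 3.55, 3.32 and 3.04 in NN livers. Every DD liver lay under every DN and every NN liver, while ND 2 lay within the DD range. The difference was -1.75 ± 0.394 in DD against DN (adjusted p = 0.131), a 3.35-fold lower signal that did not pass, and 1.03 ± 0.394 in DN against NN (adjusted p = 0.315). In DD against ND it was -0.99 ± 0.415 (adjusted p = 0.55), and in DD against NN -0.71 ± 0.415 (adjusted p = 0.999), where 1.01% of all genes were also lower without overlap. The DD signals lie close to the dim limit.

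Ugt2b10 had 5.99, 6.49, 5.73 and 5.46 in DD livers, 6.71, 6.66, 6.54, 6.86 and 6.87 in DN livers, 6.23, 5.81, 5.92 and 6.94 in ND livers and 5.97, 6.67, 6.73 and 6.30 in NN livers. The DN livers lay close together and above all DD livers, at -0.81 ± 0.230 in DD against DN (adjusted p = 0.131). In ND against NN livers it was at -0.20, with a 95% interval of -0.71 to 0.31. Ugt2b35 had 5.46, 6.21, 7.29 and 5.97 in DD livers, 6.72, 7.40, 7.74, 7.40 and 6.85 in DN livers, 6.79, 6.18, 6.22 and 7.49 in ND livers and 5.94, 7.10, 6.71 and 5.97 in NN livers. Here DD 3 lay within the DN range, and the difference was -0.99 ± 0.353 in DD against DN (adjusted p = 0.168) and 0.79 ± 0.353 in DN against NN (adjusted p = 0.358). The remaining Ugt genes were closer to 0 in DD against DN: Ugt2b1, a form that conjugates morphine in the rat, at -0.34 ± 0.287, Ugt2b34l1 at -0.07 ± 0.183 and the dim Ugt3a1 at 0.14 ± 0.144. Of the 6 Ugt genes 5 were below 0 in DD against DN, with a median of -0.58, and 5 were above 0 in DN against NN, with a median of 0.45.

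In the GRCr8 order, 5 of the Ugt genes lie on chromosome 14 in a stretch of 26 annotated genes (16 protein-coding) that runs from Sult1d1 to Ugt2b34l1 and also holds Sult1b1. It includes 7 members, of which 6 were tested. Ugt2a3 and Sult1b1 are separated there by Ugt2a1, which was not among the genes used. The Ugt2b genes are close relatives, the probe sequences were not examined, and signals of related genes in such families cannot be separated with certainty.

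Sult1a1, the phenol sulfotransferase, had 8.38, 8.68, 8.64 and 8.37 in DD livers, 8.91, 8.78, 8.87, 8.90 and 9.31 in DN livers, 9.34, 8.77, 8.69 and 9.24 in ND livers and 8.73, 9.03, 8.03 and 8.23 in NN livers. All DD livers lay under all DN and all ND livers, and DD and NN livers overlapped. The difference was -0.44 ± 0.193 in DD against DN (adjusted p = 0.238), -0.49 ± 0.203 in DD against ND (adjusted p = 0.55), 0.45 ± 0.193 in DN against NN (adjusted p = 0.345) and 0.51 ± 0.203 in ND against NN (adjusted p = 0.889). Beside the separation from ND, 2.23% of all genes were lower in DD against ND without overlap. Sult1a1 was at 0.01 in DD against NN, with a 95% interval of -0.41 to 0.44.

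Sult1b1, which sulfates thyroid hormones and small phenols, varied most within groups. It had 5.58, 5.07, 5.11 and 4.65 in DD livers, 6.28, 5.58, 7.03, 6.34 and 5.98 in DN livers, 4.85, 4.30, 6.60 and 6.84 in ND livers and 4.37, 6.17, 5.39 and 4.35 in NN livers. ND 1 and ND 2 were low and ND 3 and ND 4 were high, and all NN livers lay under that high pair. Its difference was -1.14 ± 0.477 in DD against DN (adjusted p = 0.223), and DD 1 and DN 2 met at 5.58. Sult5a1 was dim, with 1.94, 1.78, 1.75 and 2.14 in DD livers, 1.87, 2.04, 2.06, 1.86 and 1.84 in DN livers, 1.83, 2.25, 1.94 and 1.71 in ND livers and 2.51, 1.85, 2.18 and 1.91 in NN livers, and overlapped in all comparisons.

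The alpha class glutathione transferases reduce lipid hydroperoxides and conjugate products of lipid peroxidation. Gsta1 had 7.34, 7.52, 7.93 and 7.44 in DD livers, 8.01, 7.69, 8.49, 8.60 and 8.16 in DN livers, 8.04, 7.93, 8.00 and 8.22 in ND livers and 7.60, 8.19, 7.94 and 6.89 in NN livers. The ND livers were tight and the NN livers spread widely around a lower mean, and DD 3 reached the range of DN and ND. Its difference was -0.63 ± 0.226 in DD against DN (adjusted p = 0.168), 0.54 ± 0.226 in DN against NN (adjusted p = 0.337) and 0.39 ± 0.238 in ND against NN (adjusted p = 0.889). The DN against NN difference of Gsta1 was 0.28 without NN 4, the lowest NN liver. Gsta2 had 7.25, 7.76, 8.89 and 8.55 in DD livers, 7.74, 7.62, 7.99, 9.48 and 8.48 in DN livers, 8.30, 7.66, 8.55 and 8.39 in ND livers and 6.08, 8.34, 7.49 and 7.53 in NN livers. NN 1 was the lowest liver of all, and the mean of NN was below that of the other 3 groups, at 0.75 in DD against NN (95% interval -0.21 to 1.71), 0.90 in DN against NN (-0.01 to 1.81) and 0.86 in ND against NN (-0.09 to 1.82), each with an interval that includes 0.

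Gsta4, which detoxifies 4-hydroxynonenal, had 5.09, 5.38, 4.99 and 5.47 in DD livers, 5.09, 5.49, 4.90, 6.29 and 5.61 in DN livers, 5.60, 4.70, 5.68 and 5.53 in ND livers and 4.59, 5.59, 5.21 and 4.54 in NN livers. Its groups overlapped in all comparisons, and ND 2 stood apart as the lowest ND liver. All 4 tested alpha class genes, with the dim Gsta6, had a mean difference above 0 in ND against NN (median 0.39) and in DN against NN (median 0.52) and below 0 in DD against DN (median -0.19), none of which passed.

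The mu class, which conjugates epoxides and other electrophiles, lies together on chromosome 2 with 6 members. Gstm7 had 7.37, 7.47, 6.45 and 7.23 in DD livers, 7.54, 7.83, 6.0, 7.61 and 6.58 in DN livers, 7.65, 7.06, 7.33 and 7.5 in ND livers and 6.82, 6.97, 6.61 and 6.89 in NN livers. All ND livers lay above all NN livers, at 0.56 ± 0.320 (adjusted p = 0.889). The same held for Gstm2, with group means of 7.93 ± 0.22 in ND and 7.43 ± 0.12 in NN (SD, n = 4 each) and a difference of 0.49 ± 0.253 (adjusted p = 0.889), so 2 members were higher without overlap, beside 1.37% of all genes. Neither separated DD from DN livers, and both were low in DN 3, at 6.0 for Gstm7 and 6.57 for Gstm2.

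Gstm6 was dim and was the member higher in DD against DN livers without overlap, at 0.38 ± 0.137 (adjusted p = 0.17), beside 2.68% of all genes. It had 2.18, 2.24, 2.66 and 2.36 in DD livers, 2.14, 1.88, 1.99, 1.84 and 2.03 in DN livers, 2.28, 2.44, 2.06 and 2.31 in ND livers and 2.17, 2.23, 1.83 and 2.48 in NN livers. Gstm5 had 2.78, 3.37, 2.72 and 3.07 in DD livers, 2.76, 3.02, 3.32, 3.48 and 3.07 in DN livers, 2.77, 3.24, 2.98 and 3.53 in ND livers and 3.29, 2.86, 2.59 and 3.11 in NN livers, with overlap throughout. Gstm3 was dim at a mean of 2.36, and Gstm4 was at -0.03 in DD against DN and 0.01 in ND against NN. The members of the mu class are near relatives as well, and their probe sets may share signal.

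Among the other transferases, Gstt2 of the theta class had 6.38, 5.98, 5.00 and 5.86 in DD livers, 6.34, 6.09, 5.66, 6.68 and 5.98 in DN livers, 6.42, 5.91, 6.27 and 6.19 in ND livers and 5.91, 6.14, 5.63 and 5.43 in NN livers. Its differences were -0.35 ± 0.241 in DD against DN (adjusted p = 0.446) and 0.42 ± 0.254 in ND against NN (adjusted p = 0.889), with overlap in both. Gstk1, the kappa class enzyme of mitochondria and peroxisomes, had 7.99, 7.63, 6.66 and 7.39 in DD livers, 7.89, 7.87, 6.93, 8.04 and 7.22 in DN livers, 8.10, 7.43, 7.73 and 7.60 in ND livers and 7.27, 7.89, 6.68 and 6.83 in NN livers. DD 3, DN 3 and NN 3 were the lowest livers of their groups for Gstk1 and also for Gstm7. Gsto1, which reduces dehydroascorbate, had 5.85, 5.84, 5.96 and 5.91 in DD livers, 5.60, 5.83, 6.31, 6.34 and 6.26 in DN livers, 6.04, 5.93, 6.05 and 5.93 in ND livers and 5.70, 6.15, 6.10 and 5.58 in NN livers. The DD and ND livers were tight for Gsto1, and no comparison separated the groups.

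Gstp1, a marker of preneoplastic foci in rat liver, had a mean signal of 3.82, with a difference of 0.32 ± 0.195 in DD against DN (adjusted p = 0.389) and 0.03 ± 0.205 in ND against NN (adjusted p = 0.984). Within the theta class Gstt3 was at 0.37 and Gstt1 at -0.03 in DD against DN, where Gstt2 was at -0.35. All 3 had intervals that include 0. Gsto2 and Gstt4 were dim. Over these 8 genes the median was -0.07 in DD against DN, 0.11 in DN against NN and 0.07 in ND against NN.

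Mgst1, the membrane-bound transferase of the endoplasmic reticulum, had the lowest SD within groups of the tested members. It had 10.59, 10.63, 10.74 and 10.62 in DD livers, 10.54, 10.67, 10.78, 10.68 and 10.72 in DN livers, 10.64, 10.53, 10.63 and 10.62 in ND livers and 10.47, 10.63, 10.74 and 10.46 in NN livers. Its difference was -0.04 in DD against DN with a 95% interval of -0.24 to 0.17, and 0.03 in ND against NN with an interval of -0.18 to 0.24. Intervals this narrow were found for no other tested member. Mgst3 had 6.51, 6.57, 5.73 and 5.35 in DD livers, 5.93, 6.69, 5.86, 5.83 and 5.06 in DN livers, 5.54, 6.56, 6.13 and 5.97 in ND livers and 6.17, 6.11, 6.19 and 5.87 in NN livers, and the NN livers lay within the range of each other group.

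The interaction asks whether the difference made by the lactation diet depended on the pregnancy diet, as the DD minus DN difference less the ND minus NN difference. Fmo1 had -0.72 in DD minus DN and 0.72 in ND minus NN, an interaction of -1.44 ± 0.366 (adjusted p = 0.114). Ugt2a3 had -1.75 in DD minus DN and 0.28 in ND minus NN, an interaction of -2.02 ± 0.573 (adjusted p = 0.118). Sult1a1 was at -0.94 ± 0.280 (adjusted p = 0.118) and Gsta1 at -1.03 ± 0.328 (adjusted p = 0.133). In all 4 genes the mean was lower under the deficient lactation diet after a deficient pregnancy diet and higher under it after an adequate one. Sult1b1 at -1.72 ± 0.694 (adjusted p = 0.19), Ugt2b35 at -1.23 ± 0.513 (adjusted p = 0.203) and Gstt2 at -0.76 ± 0.350 (adjusted p = 0.237) had the same signs, and the dim Fmo2 had the opposite ones, at 0.44 ± 0.157 (adjusted p = 0.156). The interaction of Gstt2 was -0.50 without DD 3.

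At an unadjusted p under 0.05 these made 7 members (19.4%) with an interaction below 0, beside 11.9% of all genes, and 1 above 0, beside 8.12%. The 7 became 4 without ND 4 or NN 4 and 12 without NN 2, where the share of all genes past the mark in either direction was 13.9%, 14.6% and 26%. Once array spread was in the model 0 members were below 0 and 2 above 0 by this mark, beside 4.49% of all genes in either direction. With all arrays and no covariate the median over the 36 members was -0.27, with 11 above 0 and 25 below. The median over all genes was 0.03, with 53.1% above 0. Over the 25 members above the dim limit it was -0.54, with 21 below 0. Over all genes with at least 4 arrays above the dim limit it was -0.06. By family, the median was -0.13 for Fmo, -0.60 for Ugt, -0.94 for the 3 Sult genes, -0.82 for Gsta, -0.18 for Gstm, -0.09 for the other Gst genes and 0.07 for Mgst. Mgst3, Gstt3, Gstp1 and Gstt1 were the 4 members above the dim limit with an interaction above 0, at 0.20, 0.62, 0.29 and 0.09, and the interval of each included 0.

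**Figure D3:**
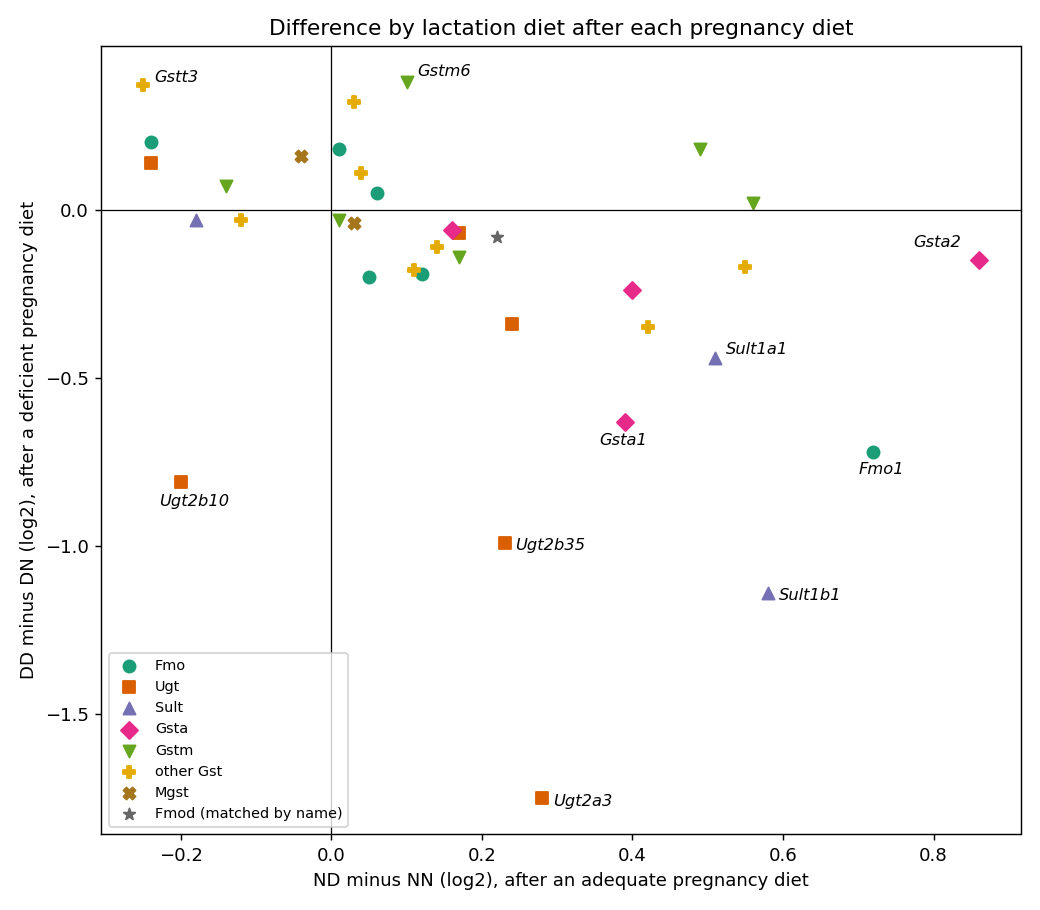
Difference in log2 signal by lactation diet for the 36 tested members, after a deficient pregnancy diet (DD minus DN, y axis) and after an adequate one (ND minus NN, x axis); marks show the family. Fmo1, Sult1a1, Sult1b1, Gsta1, Ugt2b35 and Ugt2a3 lie below 0 on the y axis and above 0 on the x axis, and Ugt2b10 lies below 0 on both.

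The array NN 2 bore on these values. It was the highest NN liver for 19 of the 36 members, and 26 of the 36 lay above their own mean over the 17 arrays in it, against 8, 15 and 11 in NN 1, NN 3 and NN 4. Without NN 2 the interaction passed for 639 of the 12912 genes (4.95%), among them 3 of 36 members: Fmo1 at -1.68 (adjusted p = 0.0269), Sult1a1 at -1.12 (adjusted p = 0.0321) and Gsta1 at -1.21 (adjusted p = 0.0409). Ugt2a3 was at -2.10 (adjusted p = 0.0543). With it, 0 genes passed. No label marks NN 2 as different from the other NN livers.

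Array spread also moved with the groups, with means of 1.673 in DD, 1.746 in DN, 1.744 in ND and 1.701 in NN livers, and DN and ND, with the higher spread, were also the groups with the higher mean of Fmo1. With array spread as a covariate the interaction of Fmo1 was -0.50 (adjusted p = 0.985), that of Ugt2a3 -1.07, that of Sult1a1 -0.55 and that of Gsta1 -0.85, and the DD minus DN difference was -1.14 for Ugt2a3 (adjusted p = 0.876) and -0.12 for Fmo1. The median of the 36 members in DD against DN was then 0.03. Every one of these 4 genes kept its direction, while the sizes were smaller than those without the covariate. Array spread is computed from the same arrays as the signals, and its part in the differences was not tested. The mean of the Kupffer cell markers ran at 4.53 to 4.81 in DD, 4.57 to 5.38 in DN, 4.60 to 5.49 in ND and 4.84 to 5.33 in NN livers, and that of sinusoidal endothelial markers at 5.73 to 6.34 in DD, 6.13 to 6.61 in DN, 6.22 to 6.60 in ND and 5.86 to 6.57 in NN livers. That of stellate cell and fibroblast markers ran at 4.88 to 5.50 in DD, 4.89 to 5.33 in DN, 5.00 to 5.30 in ND and 4.79 to 4.94 in NN livers, so all ND livers lay above all NN livers in it. In the mean of the Kupffer cell markers all DD livers lay under all NN livers. The mean of the dim prostate markers separated groups too, at 1.94 to 2.18 in DD and 1.72 to 1.92 in DN livers. No share over all genes was computed beside these separations of marker means. The part of Kupffer, endothelial and stellate cells was not tested either.

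**Figure D4:**
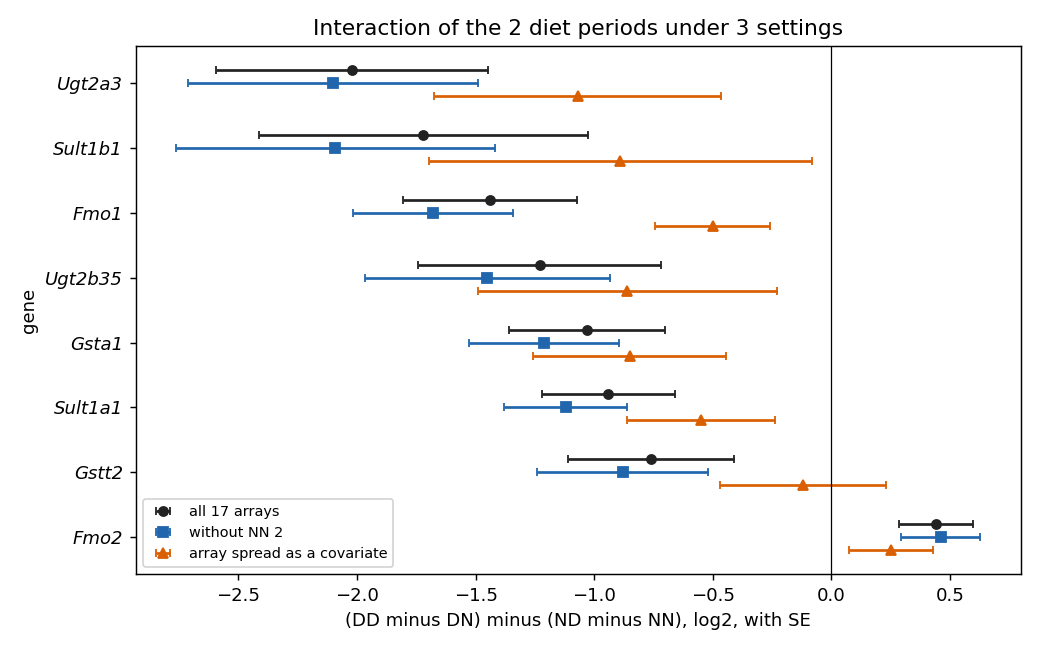
Interaction of the diet periods, (DD minus DN) minus (ND minus NN), in log2 units with its SE (x axis) for the 8 members with an unadjusted p under 0.05 (y axis), with all 17 arrays, without NN 2, and after adding array spread to the model. The points without NN 2 lie further from 0 than those of all arrays, and those with the covariate lie nearer to 0.

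**Figure D5:**
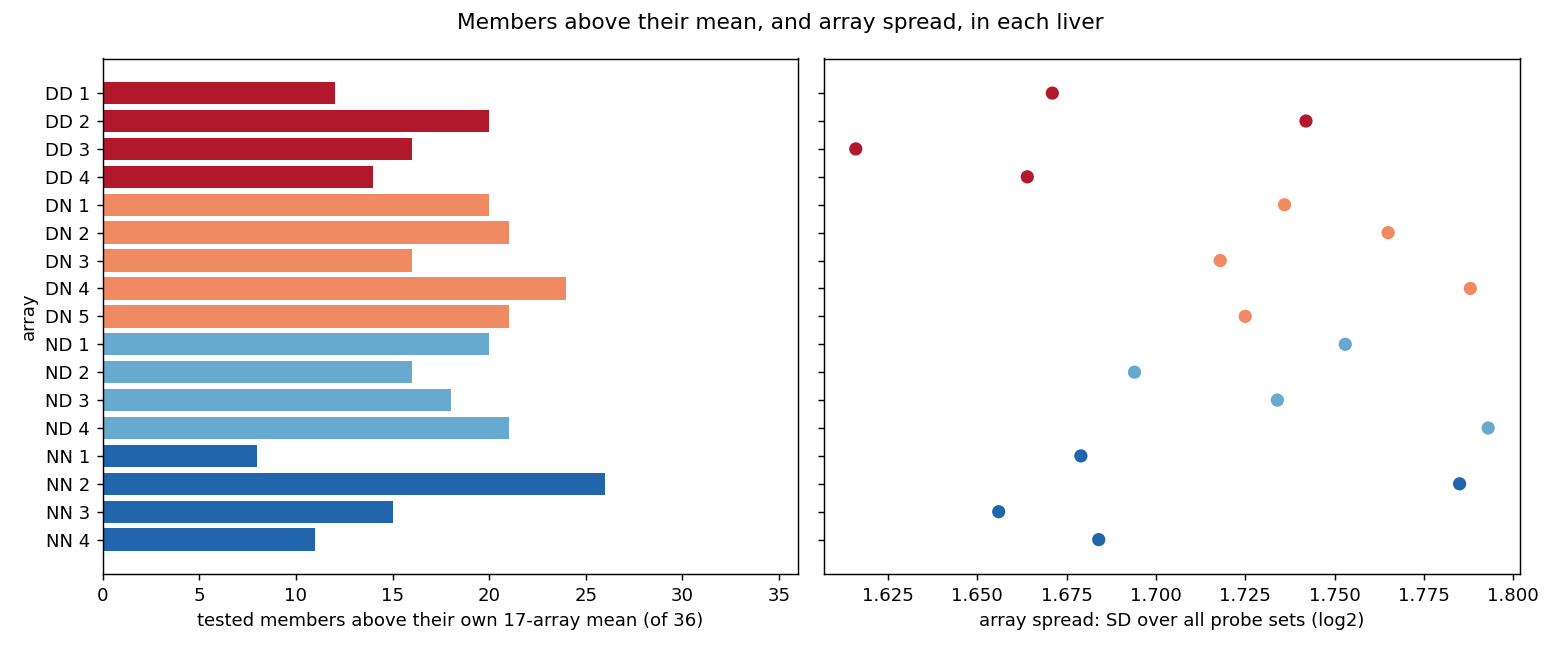
Number of the 36 tested members above their own mean over the 17 arrays (left, bars) and the SD of all values on the array in log2 units, its spread (right, points), for each liver (y axis). NN 2 has 26 members above their mean and the highest spread of the NN livers at 1.785.

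Genes that supply or complement these enzymes were read from a list of 91 entries, of which 63 were tested. They cover the supply of UDP-glucuronate, sulfate donor, glutathione and NADPH, other conjugating and hydrolysing enzymes, deconjugation, efflux and regulators. None of them passed. All values of this list are from the 17 arrays with no covariate. Its values without NN 2 or with array spread as a covariate, which moved the members, are not given here. In DD against DN livers 15 of the 63 (23.8%) were lower, beside 10.6% of all genes, and 3 (4.76%) were higher, beside 7.84%, at an unadjusted p under 0.05, with a median of -0.29 and 44 below 0. By the same mark 10 (15.9%) were higher in DN against NN livers, beside 6.78% of all genes, and 3 (4.76%) were lower, beside 6.63%, with a median of 0.15. In ND against NN livers 4 (6.35%) were higher, beside 2.75% of all genes, and 1 (1.59%) was lower, beside 1.88%, with a median of 0.16. In DD against ND livers 1 (1.59%) was higher, beside 2.93% of all genes, and 8 (12.7%) were lower, beside 5.84%, with a median of -0.23. In DD against NN livers 1 (1.59%) was higher, beside 1.33% of all genes, and 1 (1.59%) was lower, beside 2.25%, with a median of -0.05. The interaction was past the mark above 0 for 2 genes (3.17%), beside 8.12% of all genes, and below 0 for 17 (27.0%), beside 11.9%, and over the whole list 18 were above 0 and 45 below, with a median of -0.41.

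The smallest p of this list in DD against DN belonged to Abcb4, the canalicular exporter of phosphatidylcholine, with group means of 5.75 ± 0.34 in DD and 6.68 ± 0.45 in DN livers and a difference of -0.93 ± 0.243 (adjusted p = 0.131). Glyatl2, a glycine acyltransferase, followed at -1.04 ± 0.285 (adjusted p = 0.131) and Nqo2, a quinone reductase, at -1.16 ± 0.347 (adjusted p = 0.134). In DN against NN the leading genes were Glyat, which conjugates glycine to benzoate, at 1.25 ± 0.352 (adjusted p = 0.279), Glyatl2 at 0.94 ± 0.285 (adjusted p = 0.281) and Idh1, a source of NADPH, at 0.65 ± 0.203 (adjusted p = 0.281).

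The 3 smallest p-values of this list in the interaction belonged to transcriptional regulators. Ahr, the receptor for dioxins, had means of 5.17 ± 0.37 in DD, 5.95 ± 0.37 in DN, 6.17 ± 0.67 in ND and 5.32 ± 0.39 in NN livers and an interaction of -1.63 ± 0.403 (adjusted p = 0.114). Nr1i3, which encodes CAR, had 4.91 ± 0.35 in DD, 5.52 ± 0.43 in DN, 5.80 ± 0.39 in ND and 4.64 ± 0.84 in NN livers and an interaction of -1.76 ± 0.460 (adjusted p = 0.114). Bcl6, a transcriptional repressor, had 3.61 ± 0.64 in DD, 4.20 ± 0.74 in DN, 5.06 ± 0.82 in ND and 3.47 ± 0.36 in NN livers and an interaction of -2.18 ± 0.571 (adjusted p = 0.114). The 2 list genes above 0 at an unadjusted p under 0.05, named after their values were seen, were regulators as well: Cebpa, a liver transcription factor, at 1.32 ± 0.454 (adjusted p = 0.148) and Foxa2, another, at 1.12 ± 0.365 (adjusted p = 0.138). Of the other inducers given above, PXR (Nr1i2) had an interaction of -0.29 ± 0.318 (adjusted p = 0.623) and NRF2 (Nfe2l2) of -0.68 ± 0.315 (adjusted p = 0.242). Ahr, Nr1i3 and Bcl6 were also the leading genes of ND against NN, with Bcl6 at 1.59 ± 0.414, Nr1i3 at 1.15 ± 0.334 and Ahr at 0.85 ± 0.293 (adjusted p = 0.889 each). In DD against ND the leading genes were Bcl6 at -1.45 ± 0.414, Ahr at -0.99 ± 0.293 and Abcb4 at -0.71 ± 0.257 (adjusted p = 0.55 each). In DD against NN they were Nnmt, which methylates nicotinamide, at 0.42 ± 0.172, Gclc, which makes the first step of glutathione synthesis, at -0.77 ± 0.356 and Nat8 at -0.77 ± 0.371 (adjusted p = 0.999 each).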

How the data were processed

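Liver RNA of 17 rats was measured on Affymetrix arrays, 1 per animal, with a biotin label per the labels' protocols. The values are log2 probe set signals that the authors deposited. Per the submitters' processing notes RMA and the affy package made them; versions are not given in the sources used here. This method subtracts background, normalises by quantiles and combines the probes of a set; log base 2 was taken as RMA returns it. Signals are relative and carry no depth. No label gives a scan or batch, so none was tested. Replicates are animals from separate litters.

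Of 36685 probe sets, 14824 had 1 symbol in the platform annotation, 829 had several and 21032 are unnamed here. The highest-mean set per gene gave 14557 genes. The 12912 genes with at least 4 arrays above 1.73, the 25th percentile of all values, were tested in limma 3.58.1 (R 4.3.3) as 4 group means over all 17 arrays, with Benjamini-Hochberg adjustment within each comparison. The method was tested on simulated data. The members and gene lists were chosen with earlier results of these data known. The tested Fmo genes and, in each other family, up to 3 members with the smallest p of the interaction are given in every array. Further members are named by the smallest p in a comparison or the highest mean of a family. List genes are named by the smallest p, apart from Cebpa, Foxa2, Nr1i2 and Nfe2l2. Protein identity between members was not examined.

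Alternatives changed the filter (none, or the 50th percentile), the probe sets (all, or their mean per gene), the variance (trended and robust), the weights (by array quality), the normalisation (repeated quantiles, or centring of each array), the model (a replicate block, array spread as a covariate, or only the groups compared) and the arrays (each left out in turn, or DD 3 with DN 3). Replicate numbers occur in all groups, but the labels do not say that they pair animals, so the samples were not treated as paired. Over 24 same-number pairs the deviations correlated at -0.454 to 0.533 (median 0.04). Over 84 pairs of different number they correlated at -0.429 to 0.525 (median -0.033). Figures were drawn with matplotlib 3.10.9.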

Additional observations from a re-analysis of the deposited data

Results flagged for a closer look

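Of 92 sets of values examined (23 members in 4 groups), 2 held a value far from the others of its group. Sult1a1 had 9.31 in DN 5, the highest of DN, where the other DN livers lay between 8.78 and 8.91. Gsta4 had 4.70 in ND 2, the lowest of ND, where the other ND livers lay between 5.53 and 5.68. Chance puts about 1 in 20 groups past this mark, which is more than were found.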

How the results depend on the processing

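Of the 28 member differences with an unadjusted p under 0.05, all 803 values that could be computed under the 29 alternatives kept their direction, and 3 passed the test, all in the interaction without NN 2. Many of the 803 could not turn. Each member has 1 probe set, so the changes of filter, probe sets, variance and groups compared leave a difference as it was. Leaving out an array of a group that is not compared does so too. The 28 were also picked by their p, so this count is no measure of how firm they are. With array spread as a covariate 1 of those in ND against NN and 1 in DD against DN stayed under an unadjusted 0.05, and 0 in DN against NN, DD against ND and the interaction. The share of all genes under it was then 2.85%, 5.61%, 7.22%, 2.81% and 4.49%, in the same order. The number of all genes called in DD against DN, 1 with the settings used, was 0 with no filter, with centring on the array median, with only the groups compared, with array spread as a covariate and without DD 3 and DN 3. With the replicate number as a block it was 3. The labels do not say that the numbers pair the animals, and 8 of 17 arrays correlated best with an array of their own number. How many would do so by chance was not worked out, so this count does not settle whether the numbers pair animals. The median member difference was 0.03 in DD against DN, 0.07 in DN against NN, 0.01 in DD against ND, 0.11 in DD against NN and -0.05 in the interaction with array spread as a covariate, 0.29 in DN against NN with the filter at the 50th percentile, which tests fewer members, and -0.39 in the interaction with centring. Leaving out each array in turn, the genes called ran at 0 to 1 in DD against DN, 0 to 18 in DN against NN and 0 to 639 in the interaction, with the highest values of the last 2 without NN 2, and the members called in the interaction at 0 to 3. The count in DD against DN was 1 without DN 2, ND 2, ND 4, NN 2 or NN 4 and 0 without any other array. The median member difference then ran at -0.11 to -0.05 in DD against DN, 0.16 to 0.26 in DN against NN, 0.07 to 0.20 in ND against NN, -0.10 to -0.04 in DD against ND, 0.00 to 0.13 in DD against NN and -0.30 to -0.18 in the interaction. The cause of these shifts was not tested. Signals under the dim limit of 2.58 give little information on 11 of the 36 members.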
